A study of Mus musculus with 16 samples.

Results

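Cytochrome P450 families 1 to 3 hold the haem enzymes that oxidise drugs, environmental chemicals, steroids, fatty acids and bile acids in the endoplasmic reticulum of the liver. Members were taken by symbol from the counts table, leaving out the Cyp2b genes, Cyp2c55, Cyp1a2, Cyp2e1 and Cyp2f2. Of 55291 genes, 60 symbols had the form of a family member, 51 were left after these exceptions, and 45 had at least 10 raw counts in at least 2 libraries. Those 45 genes are described here: Cyp1a1 and Cyp1b1, 5 genes of Cyp2a and Cyp2g, 14 Cyp2c, 7 Cyp2d, 4 Cyp2j, 4 other Cyp2 genes and 9 Cyp3a. Cyp2j7, Cyp2j11, Cyp2j12, Cyp2j13, Cyp2w1 and Cyp2d34 missed the count minimum. All 45 genes passed the low-count filter of the tests, so no member is missing from any comparison.

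A P450 receives electrons from the reductase Por and, for some reactions, from cytochrome b5, and it needs haem made by the pathway that Alas1 starts. The nuclear receptors Nr1i2 (PXR) and Nr1i3 (CAR) and the aryl hydrocarbon receptor Ahr switch many of these genes on after exposure to chemicals, while Hnf4a and other hepatocyte factors hold their basal level. In mouse liver several Cyp2c, Cyp2d and Cyp3a genes also differ between the sexes, under the pattern of pituitary growth hormone.

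Messenger RNA was sequenced from mouse whole liver and from isolated liver tumours, in 16 libraries that form 8 groups of 2. WT, Arid1a KO and Arid1a/b DKO livers were taken 9 days after tamoxifen with DMSO as treatment, and WT and Arid1a KO livers 30 days after tamoxifen, with DMSO or with an agonist that the labels spell "NR1L3 agonist" and shorten to TC. The tumours carry the genotype Arid1a KO/BcatEXON and have no time or treatment in the labels. Arid1a and Arid1b encode alternative subunits of the SWI/SNF chromatin remodelling complex. The WT sample names begin with ALB, which the labels do not explain, and no source used here names the promoter that drives recombination, the sex or the age of the mice. No WT tumour and no DKO liver at 30 days is among the samples, and there is no tumour with Arid1a intact. The 2 WT agonist libraries carry 9 days in their titles and 30 days in their other labels, and are treated as 30-day livers. The replicates are called biological in the design text, and the p-values measure only the spread between these samples.

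The labels name hepatocytes as the cell type, but the RNA is from whole tissue. None of the 9 measured hepatocyte markers was at 0 in any library, and their summed level was 16080 to 42020 CPM, which are counts scaled to the size of the library. Markers of other cells were present too: 9 stellate cell and fibroblast genes summed to 273 to 942 CPM in livers other than DKO and to 2379 and 1142 CPM in the DKO livers. In bulk tissue, fewer cells of a type and less RNA per cell cannot be told apart. Library totals ran from 7569779 to 47768610 counts. Arid1a RNA was 87.4 and 90.1 CPM in the 9-day KO livers and 72.1 and 77.0 CPM in WT at 9 days. A count over the whole gene does not single out a deleted exon, so it does not check the labels. Arid1b was 24.5 and 25.7 CPM in the DKO livers against 38.0 and 52.8 in WT at 9 days. Xist was 0.0702 to 0.767 CPM in the 14 livers and 352 and 53.8 CPM in the tumours, and the Y-linked gene Ddx3y was 55.2 to 98.6 CPM in livers and 0.564 and 34.7 CPM in tumours. The 30-day livers also differed by replicate number in clock genes: Dbp, a clock output factor, was 61.6 and 397 CPM in replicates 1 and 2 of WT and 6.17 and 327 CPM in those of Arid1a KO. The 2 vehicle-treated KO livers at 30 days stood apart from each other. Their correlation across genes was 0.969 on log2(CPM + 1), while replicate 1 was closest to WT replicate 1 of day 30 (0.9802) and replicate 2 to KO replicate 2 of day 9 (0.984). Spp1, which encodes osteopontin, was 85.5 and 264 CPM in these livers, Nqo1 was 5.60 and 48.8 CPM, and the stellate cell and fibroblast genes summed to 318 and 639 CPM.

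Levels below are CPM in replicate 1 and then replicate 2 of a group. Fold changes are log2 values from edgeR's quasi-likelihood test with their standard errors (SE), and a gene is said to rise or fall only at a Benjamini-Hochberg adjusted p under 0.05 over all genes tested. The comparisons share libraries: WT at 9 days serves both 9-day comparisons, each 30-day vehicle group serves several, and the tumours are set against livers used elsewhere. Where 2 comparisons share libraries, agreement between them is not independent, and their values are only set side by side.

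Levels were set against each other per kilobase of exon, over the 4 vehicle-treated WT livers. Cyp2d26 (mean 512 CPM per kilobase), Cyp2d9 (496), Cyp2c29 (449.9), Cyp3a11 (413), Cyp2d10 (405), Cyp2a5 (360.1) and Cyp2c70 (353) led. Their ranges over the 4 livers overlapped, so their order is not resolved: Cyp2d26 ran from 429 to 626 and Cyp3a11 from 357 to 445, but Cyp2c29 ran from 121 to 1154 and Cyp2d9 from 137 to 896. Low members included both family 1 genes, with Cyp1a1 at 0.655 and Cyp1b1 at 0.115 CPM per kilobase, and the gut-type epoxygenases Cyp2c65 (0.0183) and Cyp2c66 (0.0123). Summed over all members, the family took 13930 and 11430 CPM in WT livers at 9 days and 15350 and 15010 CPM at 30 days. That sum was 9957 and 11190 CPM in Arid1a KO at 9 days and 3869 and 3770 CPM in the DKO. It was highest in the agonist-treated livers, at 30290 and 29320 CPM in WT against 19610 and 23300 CPM in Arid1a KO.

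**Figure D1:**
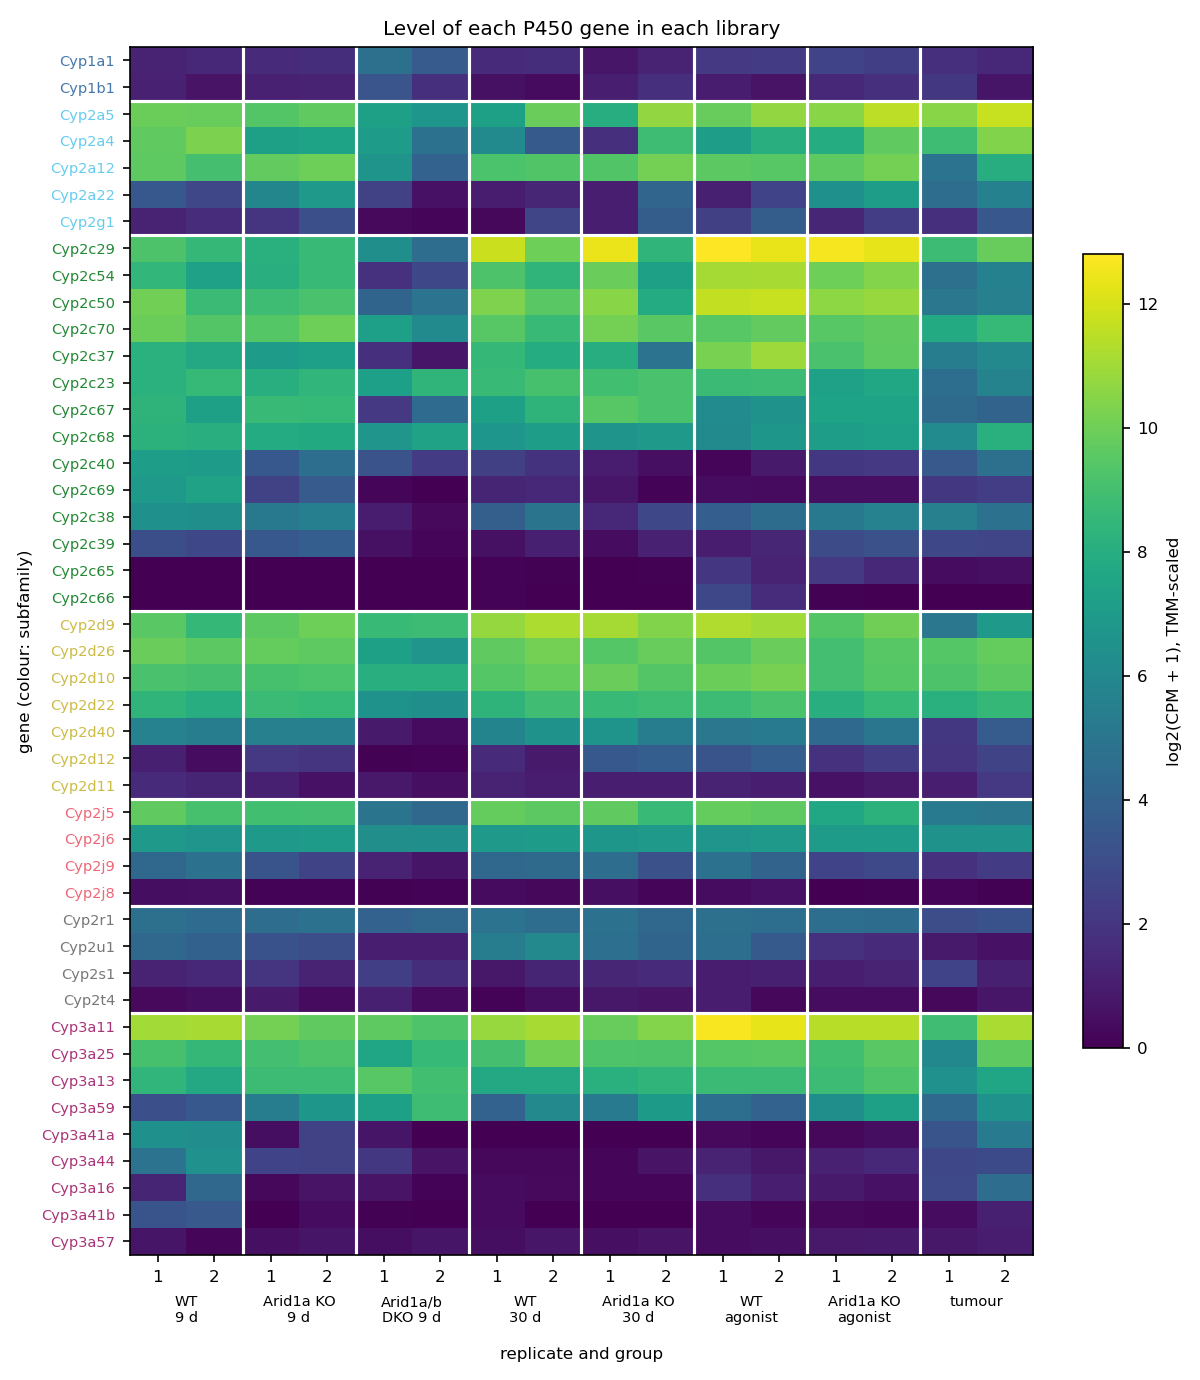
Level of each of the 45 genes in each of the 16 libraries, as log2(CPM + 1) in colour. Rows are genes grouped by subfamily and columns are libraries grouped by genotype, time and treatment. The Cyp2c, Cyp2d and Cyp2j blocks are darker, which is lower, in both DKO livers than in WT livers at 9 days for most genes. Cyp2c69, Cyp2c40 and Cyp3a41a are highest in the 9-day WT columns, and Cyp3a11 is brightest in WT livers with agonist.

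Several members are near copies of each other, which bears on how reads were assigned. Of the 50-base windows of the transcripts of Cyp3a41a and Cyp3a41b, 98.6% and 93.5% also occurred in a transcript of another gene, so the level of these genes is uncertain, singly and summed. The share was 60.3% for Cyp2c40, 54.3% for Cyp2c69, 52.8% for Cyp2c67, 43.3% for Cyp2c68, and 38% and 37% for Cyp2a4 and Cyp2a5. It was 0 for Cyp1b1, Cyp2c23, Cyp2c70, Cyp2j9, Cyp2r1 and Cyp3a13. In GENCODE M21 on GRCm38, Cyp2c69 lies at chr19:39842814-39886799 and Cyp2c40 at chr19:39767071-39812814, Cyp3a11 at chr5:145854426-145879964, Cyp2j5 at chr4:96628773-96664154 and Cyp2u1 at chr3:131288441-131303227, all on the minus strand. How the counting treated reads with several matches is not given in the sources used here.

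At 9 days, 2 members were lower in Arid1a KO than in WT livers, both of the Cyp2c cluster on chromosome 19 and both known as female-biased. The 9-day WT livers were high in both genes. WT livers at 30 days held 1.53 and 1.73 CPM of Cyp2c69 and 4.41 and 2.68 CPM of Cyp2c40, below the 9-day KO livers. Cyp2c69 stood at 119 and 166 CPM in WT against 4.74 and 11.6 CPM in Arid1a KO livers. The KO livers lay below both WT livers, and the gene fell 17.2-fold (log2 -4.11, SE 0.53, edgeR adjusted p = 0.00906). Cyp2c40, an arachidonic acid hydroxylase, stood at 147 and 129 CPM in WT against 10.5 and 23.8 CPM in KO (log2 -3.0, SE 0.54, edgeR adjusted p = 0.0381), again with no overlap. Of all genes tested, 0.566% were called in this comparison. The 45 members had a median log2 change of 0.00, beside 0.00 for all genes, and 22 of them had a positive sign.

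The 2 genes that fell belong to a list of 7 members known as female-biased in mouse liver, whose RNA was present in both 9-day WT livers although Xist was below 1 CPM there. All 7 listed genes had a negative fitted change, with a median of -4.11, and 2 passed the test. Of these 7, Cyp3a41b is a member only through the 9-day WT livers and tumour replicate 2. Its lower level in KO was therefore partly fixed by the count minimum. Cyp3a41a was 84.0 and 78.2 CPM in WT against 0.370 and 4.49 CPM in KO (log2 -4.98, SE 1.07, edgeR adjusted p = 0.0971). Cyp3a44 was 28.9 and 87.8 CPM in WT against 5.03 and 4.69 CPM in KO (log2 -3.59, SE 0.75, edgeR adjusted p = 0.0686). Neither passed the test, although the KO livers lay below the WT livers in both. The steroid hydroxylase Cyp2a4 was 814 and 1241 CPM in WT against 152 and 172 CPM in KO (log2 -2.66, edgeR adjusted p = 0.625). Cux2, a female-biased repressor of male-biased liver genes, was uneven within groups at 9 days, at 19.4 and 214 CPM in WT against 67.7 and 19.2 CPM in KO, and its part in these values was not tested.

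The most abundant members were not called at 9 days. Cyp2c29 was 601 and 371 CPM in WT against 282 and 392 CPM in Arid1a KO, and Cyp2a5 was 968 and 905 CPM in WT against 675 and 835 CPM in KO. Cyp2d9 was 743 and 365 CPM in WT against 779 and 1005 CPM in KO, and Cyp2d26 was 962 and 769.5 CPM in WT against 876 and 796 CPM in KO. Cyp2c29 and Cyp2d26 overlapped between the genotypes, Cyp2a5 was lower in both KO livers and Cyp2d9 higher. Cyp3a25 was 534 and 375 CPM in WT against 505 and 609 CPM in KO, and Cyp2j5 was 826 and 536 CPM in WT against 486 and 499 CPM in KO. The low-abundance Cyp2u1 was 18.3 and 14.7 CPM in WT against 8.29 and 7.46 CPM in KO, with no overlap (log2 -1.07, edgeR adjusted p = 0.274). In KO livers Cyp2j6 was 117 and 130 CPM and Cyp2r1 23.3 and 27.7 CPM, both overlapping with WT.

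The count of 2 depended on the setting. DESeq2 called 9 members (2.65% of all genes), edgeR without the low-count filter 16 (3%), a fit of the compared libraries alone 5 (1.27%) and a fit with all 16 libraries 1 (0.379%). Both calls depended on single libraries. Cyp2c40 was not called when any 1 of the 4 libraries was left out (edgeR adjusted p = 0.135 to 0.244). Cyp2c69 was not called without WT replicate 2 (adjusted p = 0.0599, log2 -3.84) or without KO replicate 1 (adjusted p = 0.0705, log2 -3.61).

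The start regions of Cyp2c69 and Cyp2c40 are printed because these genes moved together and share much of their sequence, and those of Cyp3a16 and Cyp3a41a because these female-biased genes carry the same element. RefSeq's promoter table (build GRCm38.p6) held 41 entries for 39 of the 45 members, each with 250 bases before and 50 after the start. CAAAGTCCA, an element selective for HNF4A, was searched on both strands, and capitals mark it. The windows are chr19:39886800-39886919, chr19:39812815-39812964, chr5:145469724-145469873 and chr5:145720137-145720286, all on the minus strand. The first is 120 bases long because bases inside an annotated exon were left out.
Cyp2c69: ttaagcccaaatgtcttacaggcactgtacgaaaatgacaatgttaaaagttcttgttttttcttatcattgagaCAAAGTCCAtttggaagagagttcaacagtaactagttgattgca
Cyp2c40: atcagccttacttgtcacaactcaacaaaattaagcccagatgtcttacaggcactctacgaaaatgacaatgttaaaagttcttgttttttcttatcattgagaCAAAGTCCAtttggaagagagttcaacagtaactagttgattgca
Cyp3a16: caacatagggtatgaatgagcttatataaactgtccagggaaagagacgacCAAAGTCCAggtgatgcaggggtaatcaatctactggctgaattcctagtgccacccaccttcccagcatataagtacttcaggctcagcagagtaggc
Cyp3a41a: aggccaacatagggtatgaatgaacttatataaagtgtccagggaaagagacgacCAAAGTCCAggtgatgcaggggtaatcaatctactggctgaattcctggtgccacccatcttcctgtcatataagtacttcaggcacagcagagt
CAAAGTCCA was in 10 of the 41 member entries, beside 0.475% of all 32851 entries in the table. The 10 were Cyp2c40, Cyp2c65, Cyp2c67, Cyp2c68, Cyp2c69, Cyp2c70, Cyp3a11, Cyp3a16, Cyp3a41a and Cyp3a41b. They include genes that fell and genes that were not called in the same comparison. Near copies have near-identical windows: the entries of Cyp2c69 and Cyp2c40 were 89% identical and those of Cyp3a41a and Cyp3a41b 98.3%. TTCNNNGAA, the form of element bound by STAT5, was in 0 of 41 member entries and in 8.3% of all entries.

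At 30 days after tamoxifen, 1 member passed the test between Arid1a KO and WT vehicle livers. Cyp2d12 stood at 2.01 and 0.908 CPM in WT against 10.7 and 13.3 CPM in KO, with no overlap (log2 3.10, SE 0.55, edgeR adjusted p = 0.0397). Of all genes, 0.516% were called. The median member changed by -0.06 log2, beside 0.03 over all genes. Cyp3a11, the main Cyp3a enzyme of adult mouse liver, stood at 1816 and 2266 CPM in WT against 910.5 and 1403 CPM in KO (log2 -0.82, edgeR adjusted p = 0.322). The KO livers lay below the WT livers, as at 9 days (2076 and 2262 CPM in WT, 1137 and 824 CPM in KO, log2 -1.15, edgeR adjusted p = 0.117), but neither difference passed the test. Cyp2c38 had the next smallest p, at 13.5 and 29.8 CPM in WT against 1.71 and 5.80 CPM in KO (log2 -2.44, edgeR adjusted p = 0.14). Cyp2d12 was not called without WT replicate 1 (adjusted p = 0.085), WT replicate 2 (0.38) or KO replicate 2 (0.158), nor with replicate number as a block (0.0507). DESeq2 called 5 members (2.23% of all genes) and edgeR without the low-count filter 12 (2.78%). No member was called by edgeR with the block (0.522% of all genes), with the compared libraries alone (0%) or with all 16 libraries in the fit (0.286%). Cyp2d12 was 1.21 and 0.350 CPM in WT, 3.40 and 2.97 CPM in KO and 0.0716 and 0.0801 CPM in DKO at 9 days.

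Other members differed more between the replicates of a 30-day group than between genotypes. The coumarin hydroxylase Cyp2a5 stood at 157 and 957 CPM in WT against 254 and 1701 CPM in KO. Replicate 2 was the higher library in both, by 2.60 and 2.74 on the log2 scale. Cyp2c29, an arachidonic acid epoxygenase that CAR controls, went the other way, at 3532 and 1005 CPM in WT against 5638 and 328 CPM in KO. Cyp2a4 was 68.0 and 11.4 CPM in WT against 2.40 and 449.8 CPM in KO, with the higher library in opposite replicates. Dbp and Cyp2b10, the classic CAR target outside the members, split the same libraries: Cyp2b10 was 354 and 0.499 CPM in WT against 323 and 8.93 CPM in KO, high in replicate 1 of both vehicle groups. The part of the clock genes and of the Cyp2b10 difference in these values was not tested.

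Members with steadier levels at 30 days were Cyp2d26, at 816 and 1121 CPM in WT against 698 and 901 CPM in KO, and Cyp2j6, at 115 and 134 CPM in WT against 110 and 119 CPM in KO. Cyp2r1 was 28.0 and 22.9 CPM in WT against 27.9 and 18.4 CPM in KO. Cyp3a25 was uneven in WT, at 533 and 1087 CPM, against 622 and 612 CPM in KO. None of these 4 was called, and the genotypes overlapped in Cyp2d26, Cyp2j6, Cyp2r1 and Cyp3a25. Cyp1a1 was 1.92 and 2.22 CPM in WT against 0.685 and 1.46 CPM in KO, and Cyp1b1 was 0.479 and 0.318 CPM in WT against 1.14 and 2.26 CPM in KO. KO livers were the lower group in Cyp1a1 and the higher in Cyp1b1, and neither was called.

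Time was compared after the data had been seen. In WT livers 3 members fell from 9 to 30 days, while 0.0224% of all genes were called: Cyp2c69 (log2 -6.44, SE 0.61, edgeR adjusted p = 0.0089), Cyp2c40 (log2 -5.31, SE 0.61, edgeR adjusted p = 0.0204) and Cyp3a44 (log2 -8.06, SE 1.01, edgeR adjusted p = 0.0341). Each was low at 30 days, with Cyp2c69 at 1.53 and 1.73 CPM, Cyp2c40 at 4.41 and 2.68 CPM and Cyp3a44 at 0.192 and 0.227 CPM. Cyp3a41a had 0 counts in both 30-day WT livers and was at least 864-fold lower there, over the group, without passing the test (edgeR adjusted p = 0.104). The male-biased testosterone hydroxylase Cyp2d9 was 743 and 365 CPM at 9 days and 1785 and 2382 CPM at 30 days in WT, all higher at 30 days (log2 1.91, edgeR adjusted p = 0.143). All 7 female-biased members had a negative change, with a median of -6.44. For Cyp3a41b, a member only through the 9-day WT livers and tumour replicate 2, this was partly fixed by the count minimum. Cux2 was 19.4 and 214 CPM at 9 days and 0.479 and 0.454 CPM at 30 days, and its part was not tested. Collection at the 2 times cannot be told apart from any difference in the mice's age. DESeq2 called 10 members (1.41% of all genes), edgeR without the filter 15 (2.77%) and a fit of the compared libraries alone 5 (0.462%). Cyp2c40 was not called when any 1 of the 4 libraries was left out (adjusted p = 0.0506 to 0.409). Cyp2c69 was lost without 30-day replicate 1 (0.124) or 2 (0.15), and Cyp3a44 without either of those (0.275 and 0.532) or without 9-day replicate 2 (0.0687).

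In Arid1a KO livers, edgeR called 0 of the 45 members between 30 and 9 days, with 0.0112% of all genes called. At an unadjusted p under 0.05 there were 14 (6.9% of all genes), DESeq2 called 6 (0.51%) and edgeR without the filter 13 (2.08%). Cyp2c40 was 10.5 and 23.8 CPM at 9 days and 1.03 and 0.438 CPM at 30 days, and Cyp2c69 was 4.74 and 11.6 CPM at 9 days and 0.685 and 0.0729 CPM at 30 days. The difference between genotypes in the change over time was called for 0 members by edgeR (0% of all genes) and 0 by DESeq2 (0.00561%), with 3 at an unadjusted p under 0.05 (1.81%) and 3 by edgeR without the filter (0.445%). Cyp3a44 had the smallest p in that test (log2 4.57, edgeR adjusted p = 1).

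**Figure D2:**
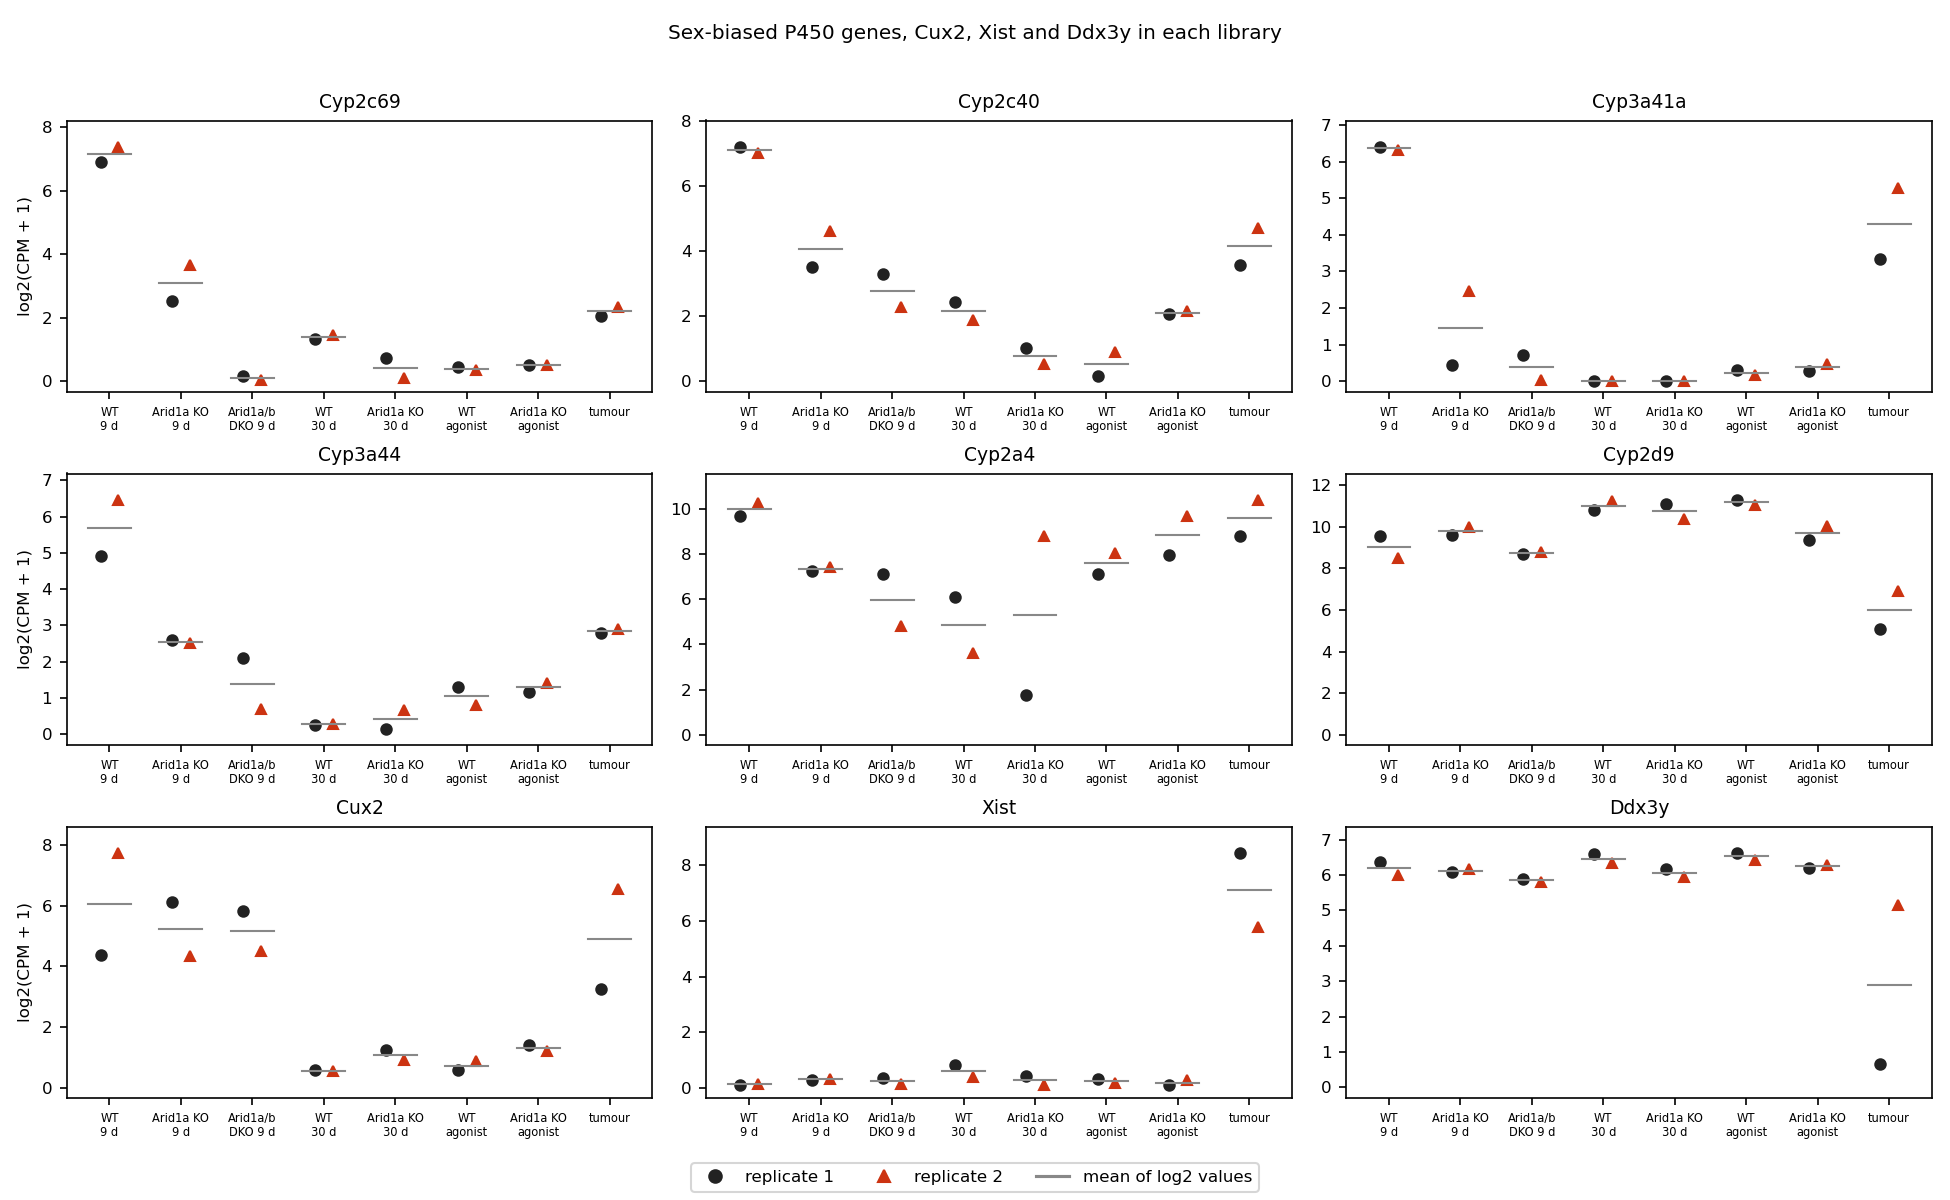
Levels of 6 sex-biased P450 genes and of Cux2, Xist and Ddx3y in each library, as log2(CPM + 1) by group, with circles and triangles for replicates 1 and 2 and a bar at the mean of the log2 values. Cyp2c69, Cyp2c40, Cyp3a41a and Cyp3a44 are highest in the 9-day WT livers and low in the 30-day livers, where Cyp2c40 reaches 4.41 CPM. These 4 genes are higher again in both tumours, where Xist is also high, while Cyp2d9 is lowest in the tumours.

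Most of the family differed between Arid1a/b DKO and WT livers. Against WT at 9 days, 28 of the 45 members fell and 4 rose, 71.1% of the family beside 26.4% of all genes. The median member changed by -2.85 log2, beside 0.01 over all genes. By subfamily, 11 of 14 Cyp2c, 6 of 7 Cyp2d, 3 of 4 Cyp2j, 2 of 5 Cyp2a and Cyp2g and 5 of 9 Cyp3a genes fell. Cyp2u1 was the single gene to fall among the other 4 Cyp2 genes. With 1 library left out at a time, fewer members were called than the 32 with all of them. The share of all genes called in those fits is not given here. Direction reversed in 0 of 128 such cases of a called member.

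**Figure D3:**
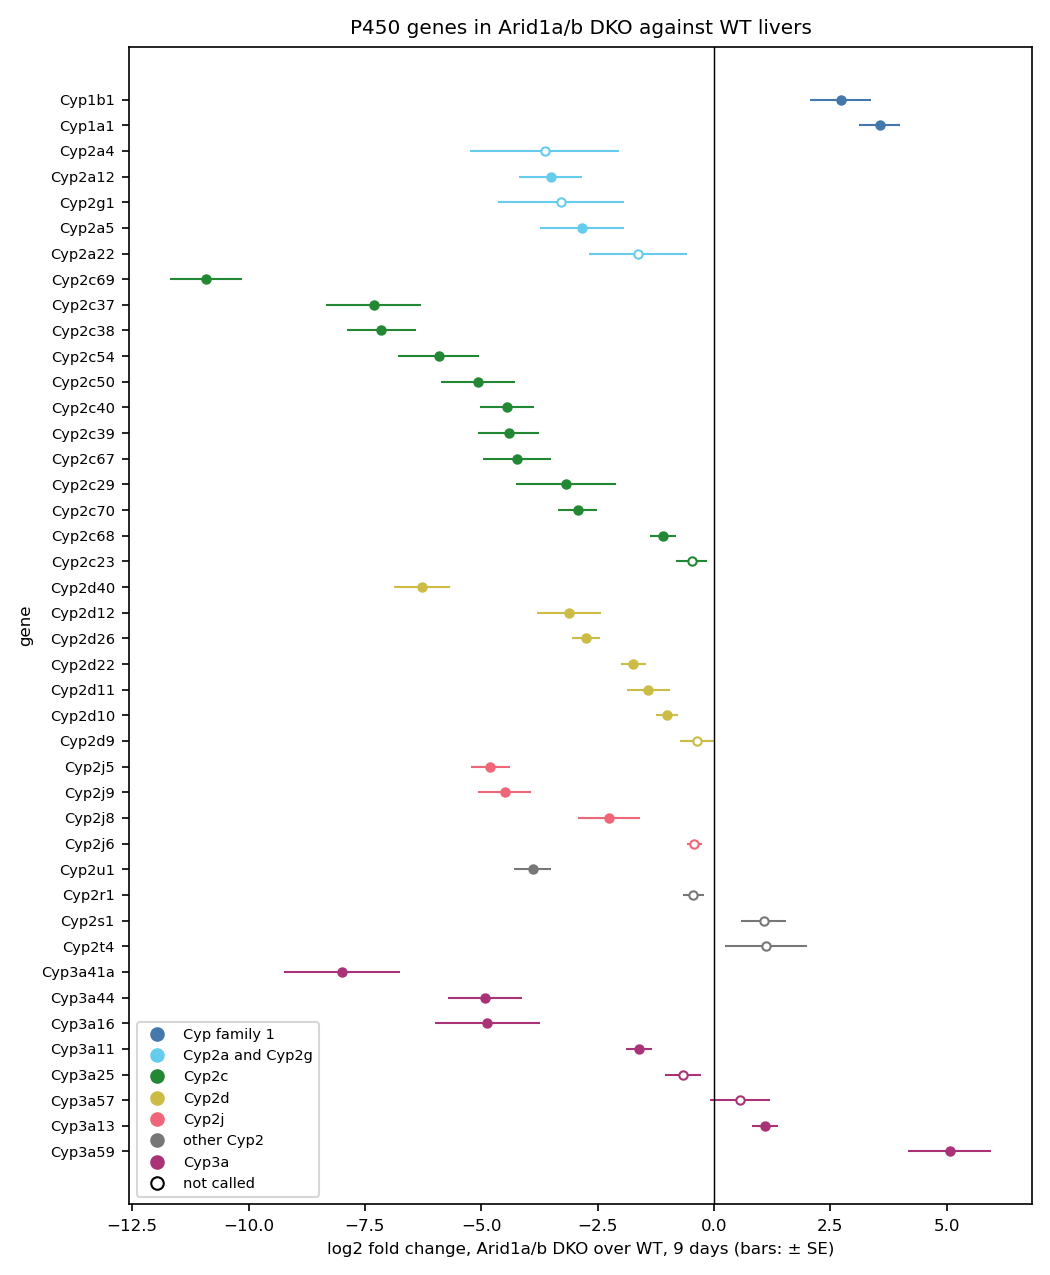
Fitted log2 change with its standard error for each member in the Arid1a/b DKO livers over WT livers at 9 days, coloured by subfamily, with open circles where the test was not passed. Cyp1a1 and Cyp1b1 lie to the right, most Cyp2c, Cyp2d and Cyp2j genes to the left. Cyp2c65, Cyp2c66 and Cyp3a41b are not drawn because one of the groups held 3 counts or fewer.

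Both family 1 genes rose, as did Cyp3a59 and Cyp3a13. Cyp1a1, the Ahr-induced hydroxylase of polycyclic hydrocarbons, stood at 1.45 and 1.72 CPM in WT, 1.85 and 2.17 CPM in Arid1a KO and 26.0 and 11.6 CPM in DKO livers. Both DKO livers lay above all other 14 libraries, which ran from 0.685 to 4.98 CPM. The gene rose 11.8-fold over WT (log2 3.56, SE 0.44, edgeR adjusted p = 0.000391) and by 3.22 log2 over Arid1a KO (SE 0.43, edgeR adjusted p = 0.000688), and it was called with any 1 library left out. Cyp1b1, a hydroxylase of oestrogens and hydrocarbons, stood at 1.29 and 0.605 CPM in WT, 1.26 and 1.32 CPM in KO and 9.51 and 2.47 CPM in DKO livers (log2 2.73, SE 0.66, edgeR adjusted p = 0.0127). DKO replicate 1 was the higher of the 2, and both lay above the WT and KO livers. Cyp1b1 was not called against WT without DKO replicate 1 (log2 1.45, adjusted p = 0.113) or without WT replicate 2 (adjusted p = 0.0971). The stellate cell and fibroblast list was also higher in DKO replicate 1 than in replicate 2. Of its 9 genes, 6 were called higher than in WT, beside 12.6% of all genes, and none of the 9 lower. The part of this list in Cyp1b1 was not tested.

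Other genes that Ahr is known to induce did not move as one. Of 5 tested, Nqo1 rose (log2 2.43, SE 0.71, edgeR adjusted p = 0.0288), Cyp1a2 fell (log2 -3.26, SE 0.64, edgeR adjusted p = 0.00475) and 3 were not called. The regions before the starts of Cyp1a1 and Cyp1b1 are printed because both genes rose, with the core of the Ahr response element, GCGTG or its reverse complement CACGC, in capitals. They lie at chr9:57697463-57697612 on the plus strand and chr17:79715062-79715211 on the minus strand of GRCm38.p6, from RefSeq.
Cyp1a1: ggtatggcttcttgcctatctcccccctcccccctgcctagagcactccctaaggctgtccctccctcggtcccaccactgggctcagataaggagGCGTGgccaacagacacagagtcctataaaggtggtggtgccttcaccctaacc
Cyp1b1: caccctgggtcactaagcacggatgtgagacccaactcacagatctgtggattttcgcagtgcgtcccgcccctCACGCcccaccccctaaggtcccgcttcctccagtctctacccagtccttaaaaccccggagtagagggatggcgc
The core starts 54 bases before the start in Cyp1a1 and 76 bases before it in Cyp1b1. It was in 5 of 41 member entries and in 32.4% of all entries.

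By the median, the Cyp2c genes fell furthest among the subfamilies, by 4.32 log2. Cyp2c69 went from 119 and 166 CPM in WT to 0.119 and 0.0320 CPM in DKO (log2 -10.91, SE 0.77, edgeR adjusted p = 1.98e-05), and Cyp2c38 from 86.8 and 82.9 to 0.979 and 0.256 CPM (log2 -7.15, SE 0.74, edgeR adjusted p = 0.00014). Both DKO livers were below every other liver at 9 days. Cyp2c38 was 35.8 and 45.7 CPM in KO. Cyp2c40 was 8.84 and 3.83 CPM in DKO (log2 -4.45, edgeR adjusted p = 0.000488). The arachidonic acid oxidases Cyp2c37, Cyp2c50 and Cyp2c54, neighbours on chromosome 19, fell by 7.32, 5.07 and 5.92 log2 against WT. Cyp2c54, for example, was 356 and 162 CPM in WT, 261 and 394 CPM in KO and 2.51 and 5.96 CPM in DKO. Cyp2c70, which makes the muricholic acids of mouse bile, fell from 998 and 665 to 147 and 69.5 CPM (log2 -2.93, SE 0.43, edgeR adjusted p = 0.000951). Cyp2c29 was 601 and 371 CPM in WT against 83.6 and 22.6 CPM in DKO (log2 -3.19, SE 1.08, edgeR adjusted p = 0.0497). It was not called without any 1 of the 4 libraries (adjusted p = 0.0743 to 0.203).

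Among the Cyp2d genes, Cyp2d40 went from 51.2 and 40.0 CPM in WT to 0.907 and 0.304 CPM in DKO (log2 -6.27, SE 0.60, edgeR adjusted p = 0.000101). Cyp2d26, one of the abundant members per kilobase in WT, went from 962 and 769.5 to 155 and 101 CPM (log2 -2.75, SE 0.31, edgeR adjusted p = 0.000221). Cyp2d9 was the 1 gene of the 7 not called, at 743 and 365 CPM in WT against 413 and 445 CPM in DKO (log2 -0.36, edgeR adjusted p = 0.497), and its DKO values lay between the 2 WT values. Cyp2j5, an arachidonic acid epoxygenase, went from 826 and 536 to 29.6 and 18.9 CPM (log2 -4.81, SE 0.41, edgeR adjusted p = 5.33e-05), and Cyp2j9 fell by 4.50 log2. Cyp2j6 was 119 and 100.2 CPM in WT against 79.7 and 82.3 CPM in DKO and was not called (edgeR adjusted p = 0.0751). The fatty acid hydroxylase Cyp2u1 went from 18.3 and 14.7 to 1.10 and 1.09 CPM (log2 -3.90, SE 0.40, edgeR adjusted p = 0.000131), while the vitamin D hydroxylase Cyp2r1, at 25.8 and 21.4 CPM in WT against 15.4 and 19.1 CPM in DKO, was not called (edgeR adjusted p = 0.172).

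The Cyp3a cluster on chromosome 5 split. Cyp3a59 rose from 7.80 and 10.5 CPM in WT to 155 and 457 CPM in DKO (log2 5.06, SE 0.89, edgeR adjusted p = 0.00262), with Arid1a KO between them at 42.6 and 108 CPM, and 30% of its sequence windows are shared with other genes. Cyp3a13, which is also made in the gut, rose from 352 and 214 to 712 and 484 CPM (log2 1.09, SE 0.27, edgeR adjusted p = 0.0158). It was not called without WT replicate 2 (adjusted p = 0.11) or DKO replicate 1 (0.104). Cyp3a11 fell from 2076 and 2262 to 789 and 624 CPM (log2 -1.61, SE 0.28, edgeR adjusted p = 0.00261). The female-biased Cyp3a41a fell to 0.645 and 0.0320 CPM (log2 -7.99, SE 1.25, edgeR adjusted p = 0.00245) and Cyp3a44 to 3.27 and 0.609 CPM (log2 -4.92, SE 0.79, edgeR adjusted p = 0.00162). For Cyp3a41b the pooled ratio was 541 (counting interval 149 to 4479) lower, from 2 counts in DKO and 455 in WT. Cyp3a41b is a member only through the 9-day WT livers and tumour replicate 2, so this fall was partly fixed by the count minimum. Cyp3a25 was 534 and 375 CPM in WT against 192 and 378 CPM in DKO and was not called (edgeR adjusted p = 0.222).

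In the Cyp2a and Cyp2g cluster on chromosome 7, Cyp2a12 went from 784 and 523 CPM in WT to 98.7 and 15.5 CPM in DKO (log2 -3.51, SE 0.68, edgeR adjusted p = 0.00427). Cyp2a5 went from 968 and 905 to 153 and 106 CPM (log2 -2.85, SE 0.90, edgeR adjusted p = 0.0397) and was not called without any 1 of the 4 libraries (adjusted p = 0.088 to 0.164). Cyp2a4 was 137 and 27.4 CPM in DKO, below all WT and KO livers at 9 days, and was not called against WT (edgeR adjusted p = 0.115).

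The remaining members that fell in the DKO livers included Cyp2d22, from 329.5 and 257 CPM in WT to 93.9 and 81.4 CPM, Cyp2d10, from 567 and 519 to 274 and 259 CPM, and Cyp2c67, from 318 and 155 to 3.37 and 21.7 CPM. Cyp2c39, which hydroxylates retinoic acid, fell by 4.41 log2, Cyp2d12 by 3.12, Cyp3a16 by 4.87 and Cyp2c68 by 1.10. Cyp2d11 and Cyp2j8 fell from levels below 2 CPM. Cyp2j8 is a member only through replicate 2 of the 9-day WT livers and of the agonist-treated WT livers. Its fall from 9-day WT was therefore partly fixed by the count minimum. Cyp2s1 (4.23 and 2.15 CPM in DKO), Cyp2t4 (1.15 and 0.288 CPM) and Cyp3a57 (0.382 and 0.657 CPM) were low in every library and were not called in any comparison. Cyp2g1 was 1.45 and 2.10 CPM in WT, 2.96 and 7.62 CPM in KO and 0.239 and 0.128 CPM in DKO and fell against KO but not against WT. Cyp2c23 was 287 and 384 CPM in WT against 150.2 and 331 CPM in DKO and was not called (edgeR adjusted p = 0.314).

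Some calls over WT depended on single libraries. Cyp2d11 and Cyp2j8 were lost without any 1 of the 4 libraries (adjusted p = 0.0556 to 0.209 and 0.0905 to 0.144). Cyp2d10 was lost without WT replicate 1 (0.0661) and Cyp2d12 likewise (0.0676). Cyp2c68 was lost without WT replicate 1 (0.0849) or DKO replicate 1 (0.103), and Cyp3a16 without WT replicate 2 (0.156) or DKO replicate 2 (0.0552).

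The lists of genes around the family were read against the 26.4% of all genes called in the DKO livers over WT. Of 8 genes for electron transfer and haem, 5 fell and 0 rose: Por (log2 -1.82, SE 0.57, edgeR adjusted p = 0.0385), Alas1 (log2 -2.28, SE 0.51, edgeR adjusted p = 0.00906), the cytochrome b5 reductase Cyb5r3 (log2 -1.43), the ferrochelatase Fech (log2 -1.14) and the haem-binding Pgrmc1 (log2 -0.70). Of 8 receptors and partners, 4 fell: the bile acid receptor Nr1h4 (log2 -3.27), Ppara (log2 -1.23), the glucocorticoid receptor Nr3c1 (log2 -1.04) and Nr1i2 (log2 -0.97). Of 11 hepatocyte transcription factors, Cebpa (log2 -1.31) and Foxa2 (log2 -1.16) fell and Nr5a2 rose (log2 0.69), 27.3% of the list. Of 8 growth hormone and sex-bias genes, Ghr (log2 -2.73), Igf1 (log2 -1.94) and Stat5a (log2 -1.63) fell. Of 9 hepatocyte markers, 6 fell too, and the sum of all 9 was 16680 and 17560 CPM in the DKO group, 42020 and 23000 CPM in the WT group and 31250 and 23170 CPM in the KO group. The list's median change was -1.29, beside -2.85 for the P450 members. The part of hepatocyte content in the P450 values was not tested.

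Against Arid1a KO livers of the same time, 20 members fell and 2 rose in the DKO, with 22% of all genes called and a median member change of -1.44 beside 0.02. Cyp2j5 (log2 -4.34, SE 0.40, edgeR adjusted p = 8.27e-05) and Cyp2d40 (log2 -6.33, SE 0.60, edgeR adjusted p = 9.08e-05) had the smallest p. In the KO livers Cyp2j5 was 486 and 499 CPM and Cyp2d40 was 47.8 and 47.1 CPM. Cyp1a1 and Cyp1b1 were the genes that rose. Cyp1b1 was called in 1 of the 4 fits with a library left out, being lost without KO replicate 1 (0.151), KO replicate 2 (0.143) or DKO replicate 1 (0.299). Cyp2g1 and Cyp2j6 were lost without any 1 library (adjusted p = 0.0541 to 0.14 and 0.0654 to 0.144), Cyp2a22 without KO or DKO replicate 2 (0.0534 and 0.0528) and Cyp2d10 without KO replicate 2 (0.0614). None of the 9 Cyp3a genes was called by edgeR here. Cyp2a22 stood at 10.4 and 5.73 CPM in WT, 58.5 and 119 CPM in KO and 4.63 and 0.545 CPM in DKO, so that the KO livers were the high group.

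With agonist, WT livers held 15050 and 14530 CPM of summed Cyp2c RNA against 7189 and 3766 CPM with vehicle, and 7720 and 6269 CPM of Cyp3a against 2582 and 3635 CPM, but no single member passed edgeR's test. Of 45 members, edgeR called 0, with 0.028% of all genes called. At an unadjusted p under 0.05 there were 13 (3.66% of all genes), and edgeR without the filter called 20 (1.16%). DESeq2 called 5 (0.623%): Cyp2c40, Cyp2c65, Cyp2d12, Cyp2u1 and Cyp3a11. The median member changed by 0.47 log2, beside 0.00 over all genes, and 30 had a positive sign. Cyp3a11 was 1816 and 2266 CPM with vehicle and 6576 and 5104 CPM with agonist (log2 1.51, SE 0.28, edgeR adjusted p = 0.119). Cyp2d12 was 2.01 and 0.908 CPM with vehicle and 9.06 and 13.2 CPM with agonist (log2 2.99, SE 0.55, edgeR adjusted p = 0.119). The groups did not overlap for either gene.

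Vehicle livers already differed in CAR target RNA, which bears on this comparison. Cyp2b10 was 354 and 0.499 CPM in WT against 323 and 8.93 CPM in Arid1a KO vehicle livers, and it was 2129 and 2043 CPM in WT against 1886 and 1834 CPM in KO after agonist. Cyp2c29 was 7221 and 5348 CPM in WT with agonist, above both vehicle livers (3532 and 1005 CPM, log2 1.47, edgeR adjusted p = 1). Cyp2c37 was 1194 and 1935 CPM against 368 and 246 CPM, and Cyp2c54 2184 and 2283 CPM against 598 and 328 CPM. The share of the vehicle difference in these changes was not tested. With the 9-day WT livers as control, where Cyp2b10 was 8.92 and 0.764 CPM, 7 members were called, beside 0.336% of all genes.

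Cyp2c65 and Cyp2c66 were at or near 0 in all vehicle livers. Both became members only through agonist-treated livers, with at least 10 counts in 4 of them for Cyp2c65 and in the 2 WT ones for Cyp2c66. Their rise with agonist was therefore partly fixed by the count minimum, as was the higher Cyp2c66 level in WT than in KO under agonist. Cyp2c65 reached 3.02 and 1.36 CPM in WT against 3.37 and 1.65 CPM in Arid1a KO with agonist. Its pooled ratio was 28.8 (counting interval 7.62 to 243) in WT, from 59 counts over 2, and 79.7 (counting interval 14 to 3181) in KO, from 98 counts over 1. Cyp2c66 reached 5.92 and 2.04 CPM in WT, a ratio of 97.5 (counting interval 17.1 to 3889) from 100 counts over 1, but stood at 0.0702 and 0 CPM in Arid1a KO with agonist. Both agonist-treated WT livers lay above both KO livers for Cyp2c66, while the groups met for Cyp2c65. The intervals cover counting error only.

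In Arid1a KO livers, agonist raised 2 members and lowered 1, with 0.869% of all genes called. Of the 2 raised, Cyp2c65 is a member only through the agonist-treated livers, so its rise was partly fixed by the member rule. At an unadjusted p under 0.05 there were 18 (12.9% of all genes), DESeq2 called 10 (3.54%) and edgeR without the filter 25 (3.99%). Cyp2c38 rose from 1.71 and 5.80 CPM with vehicle to 35.2 and 49.9 CPM with agonist (log2 3.40, SE 0.62, edgeR adjusted p = 0.0329), and Cyp2c65 rose as given above (edgeR adjusted p = 0.036). Cyp2u1 fell from 24.9 and 16.5 to 2.53 and 1.85 CPM (log2 -3.25, SE 0.39, edgeR adjusted p = 0.00655). In WT with agonist Cyp2c38 was 13.2 and 21.9 CPM. In WT, Cyp2u1 was 42.1 and 64.3 CPM with vehicle and 24.0 and 11.6 CPM with agonist (log2 -1.60, edgeR adjusted p = 0.254). Cyp3a11 was 910.5 and 1403 CPM with vehicle and 2802 and 2779 CPM with agonist (log2 1.27, edgeR adjusted p = 0.0742), higher in both agonist livers. Cyp1a1 was 0.685 and 1.46 CPM with vehicle and 4.98 and 4.24 CPM with agonist (log2 2.01, edgeR adjusted p = 0.0742). A fit of the compared libraries alone called 0 members (0.0579% of all genes), with adjusted p of 0.104 for Cyp2u1, 0.161 for Cyp2c38 and 0.141 for Cyp2c65. In the fit of all livers, Cyp2u1 was called with any 1 library left out. Cyp2c65 was lost in all 4 such fits (adjusted p = 0.0637 to 0.176). Cyp2c38 was lost without vehicle replicate 1 (0.193), agonist replicate 1 (0.0944) or agonist replicate 2 (0.11).

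**Figure D4:**
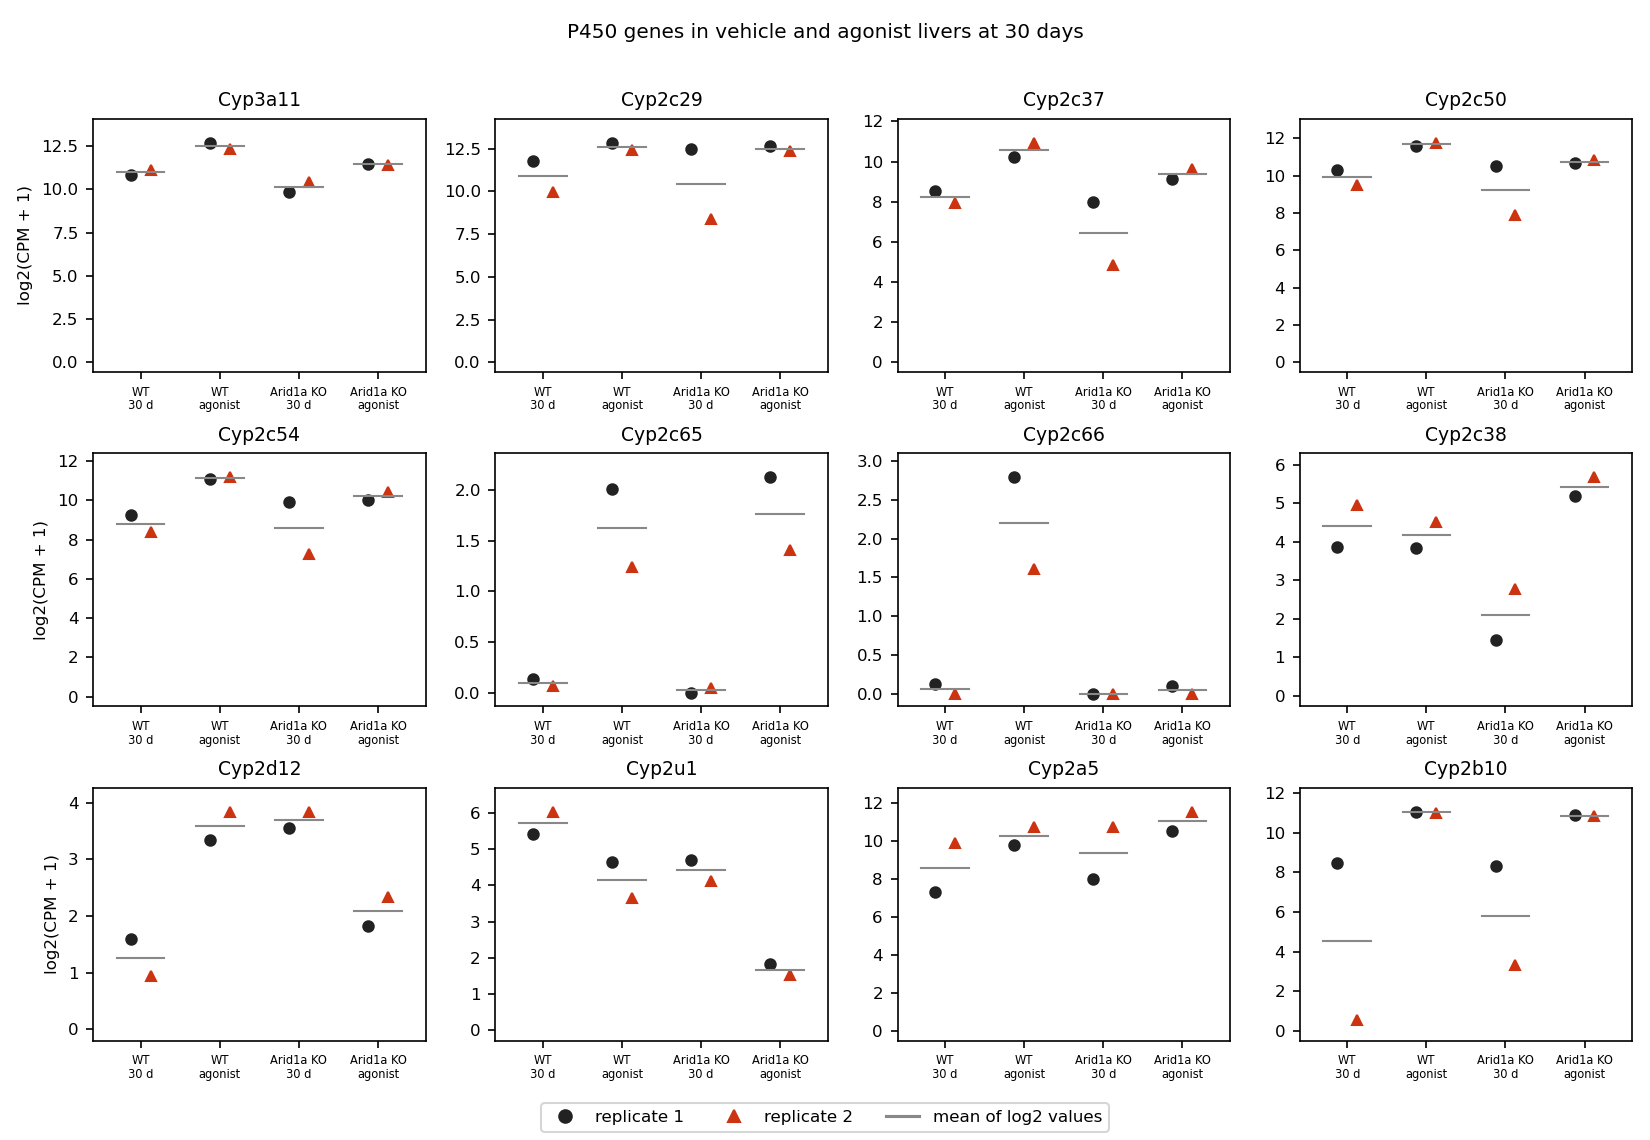
Levels of 11 members and of Cyp2b10 in the 30-day livers, as log2(CPM + 1) for WT and Arid1a KO with vehicle or agonist, with circles and triangles for replicates 1 and 2. Cyp3a11 is higher in all agonist livers than in the vehicle livers of its genotype, Cyp2c66 is above 1 CPM only in WT with agonist, Cyp2u1 is lowest in Arid1a KO with agonist, and Cyp2b10 is high in replicate 1 of both vehicle groups.

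None of the following members was called for agonist in either genotype. Cyp2d9 was 2509 and 2097 CPM in WT with agonist, overlapping with its vehicle level, and 665 and 1034 CPM in KO against 2200 and 1330 CPM with vehicle. Cyp2d26 was 679.7 and 931 CPM in WT against 515 and 725 CPM in KO with agonist, and Cyp3a25 was 696 and 721 CPM in WT against 487 and 747 CPM in KO. Cyp2j6 was 102 and 123 CPM in WT against 136 and 129 CPM in KO, and Cyp2r1 was 26.0 and 23.6 CPM in WT against 24.1 and 21.9 CPM in KO. Over all 8 livers at 30 days, Cyp2j6 ran from 102 to 136 CPM and Cyp2r1 from 18.4 to 28.0 CPM. In KO livers Cyp2c29 was 6378 and 5188 CPM and Cyp2c54 1017 and 1381 CPM with agonist, where vehicle replicate 1 already held 5638 and 962 CPM and replicate 2 held 328 and 155 CPM. Cyp2a5 was 903 and 1727 CPM in WT against 1479 and 2979 CPM in KO with agonist, and Cyp2a4 was 138 and 267 CPM in WT against 247 and 830.1 CPM in KO. In both, replicate 2 was again the higher library. Cyp2d40 was 53.5 and 94.8 CPM in WT against 97.2 and 41.2 CPM in KO with vehicle, and with agonist it was 33.2 and 36.5 CPM in WT against 19.6 and 31.8 CPM in KO. The female-biased Cyp2c69 was 0.362 and 0.280 CPM in WT against 0.421 and 0.430 CPM in KO with agonist. Cyp3a44 was 0.114 and 0.583 CPM in KO with vehicle, and with agonist it was 1.45 and 0.759 CPM in WT against 1.26 and 1.65 CPM in KO. Cyp1a1 was 3.38 and 3.68 CPM in WT with agonist against 1.92 and 2.22 CPM with vehicle, and Cyp1b1 was 0.967 and 0.600 CPM in WT against 1.82 and 2.28 CPM in KO with agonist.

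Under agonist, Arid1a KO and WT livers differed in 6 members, 4 lower and 2 higher in KO, with 4.95% of all genes called. Cyp2u1 fell 8.12-fold (log2 -3.02, SE 0.39, edgeR adjusted p = 0.00387). Cyp2j5 was 888 and 806 CPM in WT against 208 and 305 CPM in KO (log2 -1.72, SE 0.36, edgeR adjusted p = 0.0237), with vehicle levels of 883 and 778 CPM in WT against 835 and 410.2 CPM in KO. Cyp2c66 was lower by a ratio of 134 (counting interval 23.4 to 5327), with an edgeR adjusted p of 0.0327, and Cyp2j8 by 11.3 (counting interval 2.69 to 101) from 2 and 17 counts, with an edgeR adjusted p of 0.0468. Cyp2c66 is a member only through the 2 agonist-treated WT livers, so its lower level in KO was partly fixed by the member rule. Cyp2j8 is a member only through replicate 2 of the 9-day WT livers and replicate 2 of the agonist-treated WT livers, with 14 counts in each. Its lower level in KO was therefore partly fixed too. Cyp2a22 rose (log2 5.07, SE 1.19, edgeR adjusted p = 0.0365), from 1.21 and 5.0 CPM in WT to 85.6 and 142 CPM in KO. Cyp2c39, a retinoic acid hydroxylase, rose too (log2 2.48, SE 0.60, edgeR adjusted p = 0.0428). Cyp3a11 was 6576 and 5104 CPM in WT against 2802 and 2779 CPM in KO (log2 -1.06, edgeR adjusted p = 0.054), with no overlap but short of the threshold.

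DESeq2 called 13 members (10.2% of all genes) and edgeR without the low-count filter 21 (7.28%). With 1 library left out, Cyp2u1 alone was called in all 4 fits. The other 5 were lost in each of the 4 fits. Cyp2j5, for example, had adjusted p of 0.0881, 0.129, 0.189 and 0.0541 in those fits. Stellate and fibroblast markers summed to 274 and 283 CPM in WT against 942 and 506 CPM in KO with agonist, with 2 of 9 called higher, beside 3.05% of all genes. The 9 hepatocyte markers summed to 30370 and 25000 CPM in WT against 20930 and 19110 CPM in KO. The part of both lists in these differences was not tested.

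The difference between genotypes in the agonist response was tested itself. EdgeR called 0 members, with 0.00561% of all genes called. At an unadjusted p under 0.05 there were 11 (5.58%), and edgeR without the filter called 11 (1.45%). DESeq2 called 3 (0.712%): Cyp2d12, Cyp2c40 and Cyp2c38. Cyp2d12 had the smallest p (log2 -4.84, SE 0.74, edgeR adjusted p = 0.09). It was higher with agonist in WT and was 10.7 and 13.3 CPM with vehicle and 2.53 and 4.07 CPM with agonist in KO. Cyp2c40 went the other way, from 4.41 and 2.68 to 0.121 and 0.879 CPM in WT and from 1.03 and 0.438 to 3.23 and 3.44 CPM in KO (log2 4.85, SE 0.97, edgeR adjusted p = 0.233). For Cyp2u1, the interaction was -1.65 log2 (SE 0.51, edgeR adjusted p = 0.623), so its fall in KO was not shown to differ from the change in WT.

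The Arid1a KO/BcatEXON tumours were compared with Arid1a KO livers at 30 days, which share the Arid1a KO genotype. Of the 45 members, 14 fell and 9 rose, with 25.1% of all genes called. The median member changed by -0.23, beside 0.00 over all genes. Against WT livers at 30 days 11 fell and 6 rose, with 30.2% of all genes called and a median of -0.20 beside 0.05. Tumour genotype, tissue and age cannot be told apart in these comparisons, and time and treatment are not in the tumours' labels.

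Cyp2u1 and Cyp2j5 fell furthest beyond their error. Cyp2u1 was 0.902 and 0.555 CPM in the tumours, below all 14 livers, the lowest of them at 1.09 CPM and the highest at 64.3 (log2 -4.89, SE 0.46, edgeR adjusted p = 6.96e-05 against KO, -6.26 against WT). Cyp2j5 was 36.9 and 32.6 CPM (log2 -4.16, SE 0.39, edgeR adjusted p = 6.96e-05 against KO, -4.58 against WT). Among all libraries, only the DKO livers had less Cyp2j5 than the tumours. The epoxygenase Cyp2c23 was 24.0 and 52.6 CPM in the tumours against 484 and 568 CPM in KO and 411 and 550.5 CPM in WT livers, and fell by 3.77 and 3.64 log2. Cyp2c50 was 32.7 and 46.5 CPM in the tumours, against 1468 and 239 CPM in KO and 1275 and 735 CPM in WT, and Cyp2c67 was 20.5 and 15.96 CPM against 710 and 553 CPM in KO and 158 and 317 CPM in WT. Both fell in both comparisons, Cyp2c50 by 4.42 and 4.66 log2 and Cyp2c67 by 5.11 and 3.70. Cyp2r1 was 7.10 and 8.43 CPM and fell by 1.56 and 1.70 log2. Cyp2c54 was 25.5 and 48.2 CPM in the tumours and fell by 3.91 and 3.64 log2, and Cyp2d40 was 3.27 and 12.1 CPM and fell by 3.11 and 3.22. Cyp2d12 (2.82 and 5.25 CPM) fell and Cyp2c38 (46.5 and 26.4 CPM) rose over KO, and neither was called over WT.

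Sex-biased members and sex-linked RNA both differed in the tumours. All 7 female-biased members had a positive change in the tumours, with 6 called over KO and 4 over WT, and medians of 4.84 and 4.52. Of all genes, 12.9% were called higher over KO and 16.3% over WT. Cyp3a41a was 9.13 and 37.5 CPM in the tumours and had 0 counts in the vehicle livers at 30 days, at least 347-fold higher over KO and at least 311-fold over WT. As near copies, Cyp3a41a and Cyp3a41b are uncertain singly. Cyp2c40 was 10.9 and 25.3 CPM and rose over KO (log2 4.84, SE 0.72, edgeR adjusted p = 0.00092), and Cyp3a44 was 5.97 and 6.41 CPM and rose over both (log2 3.85 over KO, 4.83 over WT). With vehicle livers of both times as control, Cyp2c40 reversed to -0.26 log2 against WT (edgeR adjusted p = 0.71) and Cyp3a44 was not called (log2 0.80, edgeR adjusted p = 0.366). The 9-day WT livers held more Cyp2c40 (147 and 129 CPM), Cyp2c69 (119 and 166 CPM) and Cyp3a41a (84.0 and 78.2 CPM) than either tumour. Cyp2c69 was 3.16 and 4.09 CPM in the tumours. Cyp3a16 was 6.09 and 23.0 CPM against 0.114 and 0.182 CPM in KO and 0.287 and 0.272 CPM in WT. The male-biased Cyp2d9 was 32.8 and 118 CPM, below all 14 livers, and fell (log2 -4.55, SE 0.59, edgeR adjusted p = 0.000391 against KO, -4.79 against WT). Tumour replicate 1 held Xist without Ddx3y above 1 CPM, replicate 2 held both, and Cux2 was 8.45 and 92.8 CPM in the 2 tumours and at most 1.61 CPM in the 30-day livers. In these libraries the tumour and the sex-linked pattern cannot be told apart.

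Not all of the family's main genes differed. Cyp3a11 was 480.3 and 2299 CPM in the tumours and Cyp3a25 62.9 and 786 CPM, with replicate 1 the lower in both, and neither was called. Cyp2c29 was 446 and 921 CPM and was not called, and Cyp2j6, at 92.9 and 96.1 CPM, was not called either. Cyp2d26, at 696 and 874 CPM, was within the range of the 30-day vehicle livers (698 and 901 CPM in KO, 816 and 1121 CPM in WT) but for 1 value, and its change was -0.02 log2 (SE 0.29) over KO. Cyp2a5 (1491 and 3393 CPM) and Cyp2a4 (451 and 1358 CPM) were high in both tumours but not called against KO livers, whose replicates lay far apart. Cyp1a1, at 2.48 and 1.82 CPM, and Cyp1b1, at 3.16 and 0.656 CPM, were not called against either group.

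The genes around the family were read against the 25.1% of all genes called over KO. The 11 hepatocyte transcription factors summed to 1174 and 1841 CPM in the tumours and 2189 and 2876 CPM in KO livers. The 8 electron transfer and haem genes summed to 3799 and 5245 CPM in the tumours and 5220 and 5246 CPM in KO livers. Among 8 receptors and partners, Nr1i2 rose in the tumours (log2 1.86, SE 0.34, edgeR adjusted p = 0.00277 over KO), while Rxra (log2 -1.03), Ppara (log2 -1.50) and Nr3c1 (log2 -0.89) fell. The growth hormone receptor Ghr (log2 -1.96) and Igf1 (log2 -0.89) fell. Of 6 Ahr targets outside the members, Nqo1 (log2 2.37) and Aldh3a1 (log2 4.66) rose. Nqo1 was 143.8 and 142.5 CPM in the tumours against an uneven 5.60 and 48.8 CPM in KO livers. Aldh3a1 rests on few counts, 4 and 46 in the tumours against 0 and 2 in KO livers. The hepatocyte markers summed to 19480 and 16080 CPM in the tumours and 32040 and 24500 CPM in KO livers, with 4 of 9 called lower, beside 12.2% of all genes, and their part was not tested.

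A fit of the compared libraries alone called 12 members over Arid1a KO (8.61% of all genes), and edgeR without the filter called 27 over WT (16.8%). Fewer members were called over Arid1a KO without KO replicate 1 or without tumour replicate 1, and the share of all genes in those fits is not given here. Without KO replicate 1, Cyp3a16 (adjusted p = 0.0555), Cyp3a44 (0.0586) and Cyp2c39 (0.0738) were lost. Without KO replicate 1 or tumour replicate 1, Cyp2c70 (0.111 and 0.0995) and Cyp2j9 (0.101 and 0.0569) were lost too. Cyp2a12, Cyp2d12 and Cyp3a13 were called in 1 of 4 such fits each, the one without tumour replicate 2, and Cyp3a41b in the one without tumour replicate 1. Cyp2c65 was called in none (0.0702 to 0.164). Against WT, Cyp2c40 was lost without WT replicate 2 (0.102) or tumour replicate 2 (0.0768), and Cyp3a16 without WT replicate 1 (0.0583) or 2 (0.0664). Cyp2a22 was lost without WT replicate 1 (0.102) or 2 (0.0807), Cyp2c39 without WT replicate 1 (0.0759), and Cyp2c37 without any 1 of the 4 (0.0551 to 0.142).

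**Figure D5:**
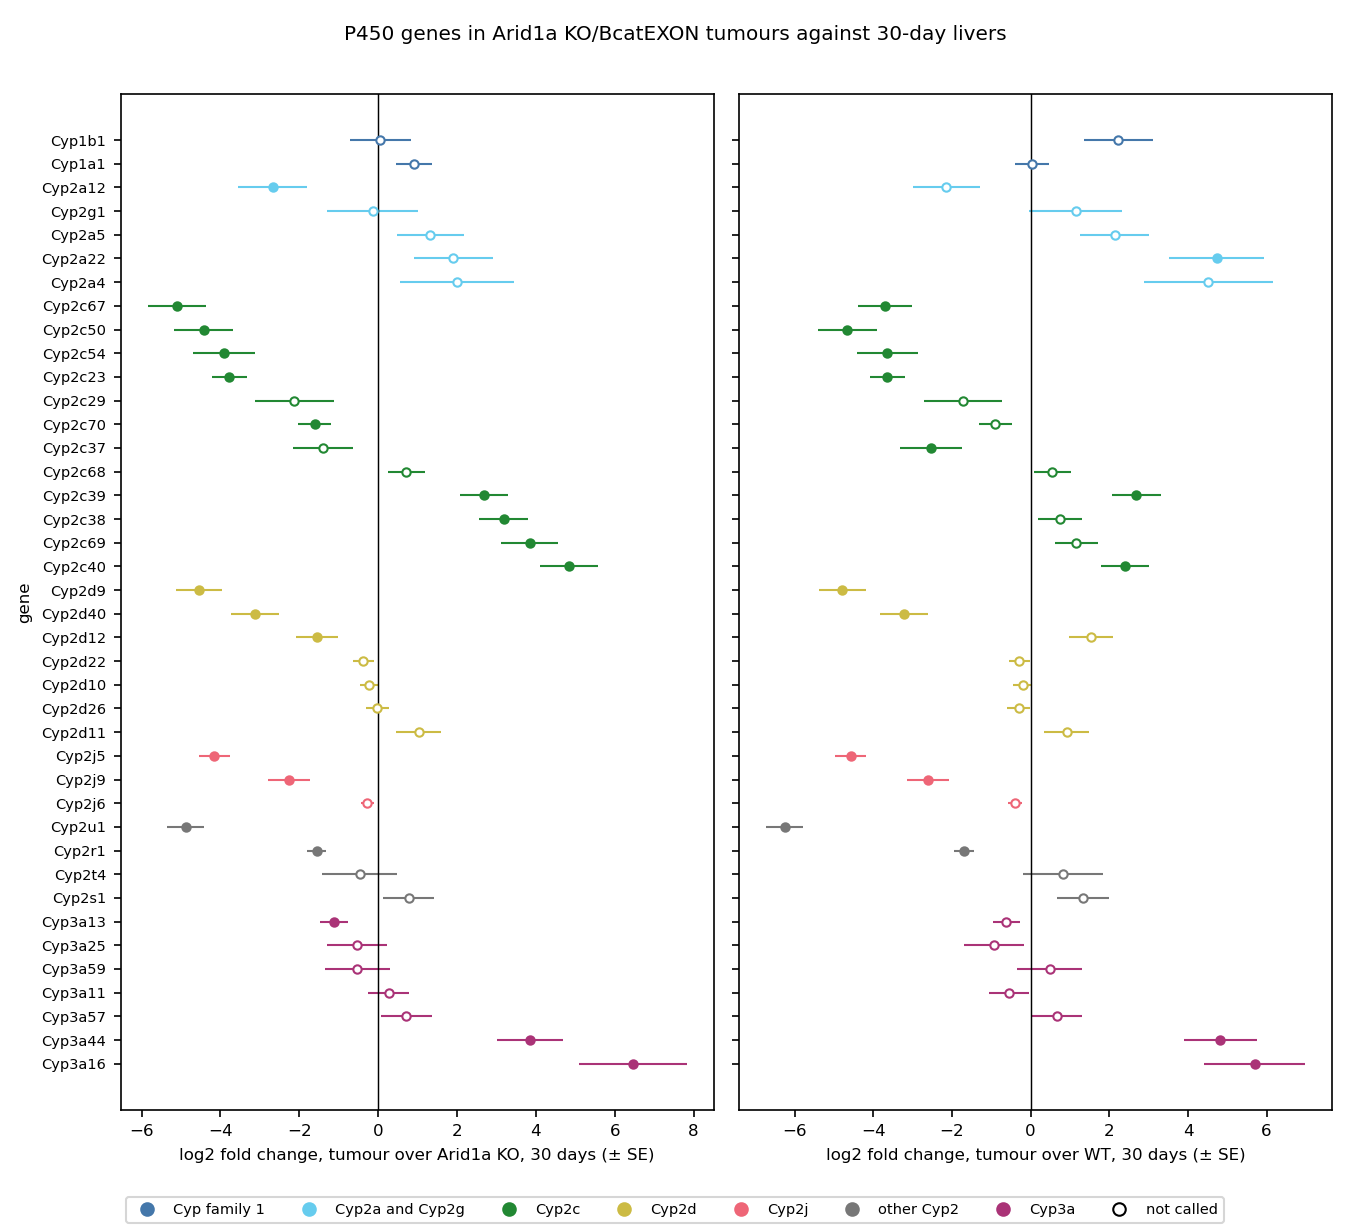
Fitted log2 change with its standard error for each member in the Arid1a KO/BcatEXON tumours, over Arid1a KO livers on the left and WT livers on the right, both at 30 days, coloured by subfamily, with open circles where the test was not passed. Cyp2u1, Cyp2j5, Cyp2d9 and Cyp2c50 lie far to the left in both panels and Cyp3a16 and Cyp3a44 to the right. Cyp2c65, Cyp2c66, Cyp2j8, Cyp3a41a and Cyp3a41b are not drawn because a group held 3 counts or fewer.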

How the data were processed

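RNA-seq was measured in 16 mouse libraries, 2 for each of 8 groups. The authors deposited raw read counts per gene, 1 column per library. Per the submitters' processing notes, the tools were fastp, STAR 2.7.3 and featureCounts, with genome build GRCm38.p6. Which annotation release and strand setting were used, and how reads with several matches were treated, is not given in the sources used here.

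Groups were taken from the labels. The table held 55291 genes, and library totals ran from 7569779 to 47768610 counts. Levels are CPM, counts scaled to the library size with TMM factors. The 14 livers were fitted together with edgeR 4.0.16 in R 4.3.3 (filterByExpr, TMM, quasi-likelihood F test, 17831 genes, 7 residual degrees of freedom), and the tumour comparisons were fitted with all 16 libraries (18193 genes, 8 degrees of freedom). A gene was called at a Benjamini-Hochberg adjusted p under 0.05 over all genes tested. The SE was taken as the size of the log2 change over the root of its F value. A ratio for a group with few counts has an exact counting interval, and a group at 0 was set to a floor of 3 counts over the group.

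The members and gene lists were chosen with earlier results of these data known, and the comparisons of 30 with 9 days were added after seeing the data. Every member called may be named, up to 8 in each direction by smallest p in a comparison. Values in every library are given for Cyp3a11, Cyp2c29, Cyp2a5, Cyp2a4, Cyp2d9, Cyp1a1 and Cyp1b1, for the leading members of each subfamily by level and for the members of smallest p in a comparison. Cyp2c66, Cyp2j8, Cyp2g1, Cyp2s1, Cyp2t4, Cyp3a57 and others named beyond that rule were chosen after their values were seen.

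Alternatives were DESeq2 1.42.0, its size factors in edgeR (RLE), no low-count filter, other sets of libraries or controls in the fit, replicate number as a block, and leaving out each library. Gene positions and exon lengths are from GENCODE M21 (GRCm38), and start regions are from RefSeq (GRCm38.p6), read with Python 3.11.15 and Biopython 1.88. Figures were drawn with matplotlib 3.10.9.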

Additional observations from a re-analysis of the deposited data

How the results depend on the processing

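The DKO counts of called members kept within 1.5 times their reported value in every setting. With all libraries of both groups kept, they were 30 to 33 against WT (32 reported), beside 16.5% to 30.2% of all genes. Against Arid1a KO they were 21 to 32 (22 reported), beside 14.4% to 26.1% of all genes. The smaller counts moved with the setting, and the cause was not tested. Without the low-count filter, edgeR called 16 members for Arid1a KO against WT at 9 days (2 reported), 12 at 30 days (1), 20 for agonist in WT (0), 25 for agonist in KO (3), 21 for KO against WT under agonist (6), 11 for the interaction (0), 27 for tumours against WT (17), 15 for 30 against 9 days in WT (3), 13 in KO (0) and 3 for genotype by time (0). DESeq2 called 9, 5, 5, 10, 13 and 3 in the first 6 of these, and 10 and 6 for time in WT and KO. When the fit held no libraries other than those compared, counts were 5 for KO at 9 days, 0 at 30 days, 0 for agonist in KO, 12 for tumours against KO and 5 for time in WT. With all 16 libraries in the fit, they were 1 and 0 for KO at 9 and 30 days. With the 9-day WT livers as control, 7 members were called for agonist in WT.

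With 1 library left out at a time, the counts were 0 to 1 for KO at 9 days, 0 to 2 at 30 days, 1 to 6 for agonist in KO, 1 in every such fit for KO against WT under agonist, 13 to 23 for tumours against KO and 0 to 2 for time in WT. The labels give replicates nothing in common across groups but a number. As a block, that number left 0 members called for KO at 30 days, and changed no other count of called members by over 1.5 times. The deviations of same-numbered libraries had correlations from -0.0383 to 0.476 across genes, and from 0.217 to 0.476 in the 4 comparisons among 30-day livers. With vehicle livers of both times as control, Cyp2c40 in tumours against WT reversed to -0.26 log2.

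Over the named genes, the direction and the call held in 106 of 109 cases with DESeq2, with RLE scaling and with the replicate block each, in 105 of 109 without the filter, in 87 of 106 with only the libraries compared, and in 317 of 436 with 1 library left out. With 2 libraries per group, members below about 1 CPM rest on few counts.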
